A study of Mus musculus with 13 samples.

Results

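The transcripts of 10 genes that switch ERK signaling off again or report its activity were followed in bone marrow (BM) progenitors of 4 mouse genotypes. They are the MAP kinase phosphatase genes *Dusp4*, *Dusp5*, and *Dusp6*, the Sprouty genes *Spry1*, *Spry2*, and *Spry4*, the Sprouty-related genes *Spred1* and *Spred2*, and the output genes *Etv5* and *Phlda1*. The genes were chosen by name as ERK feedback and output genes, and all 10 are among the 54838 genes of the count table. Each of the 10 also passed the filter on low counts that 17795 genes passed.

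Lin- cKit+ BM cells, the marrow fraction that lacks mature lineage markers and contains the hematopoietic stem and progenitor cells (HSPCs), were sorted from 3 control, 3 p53mut, 3 NrasG12D, and 4 NPmut mice, 50000 cells per mouse, for RNA-Seq of total RNA. All mice carried *Mx1-Cre*, a recombinase transgene that interferon switches on and that acts in blood cells and in other interferon-responsive cells. Controls carried *Mx1-Cre* alone, p53mut mice also had 1 p53 R172H allele, NrasG12D mice 1 Nras G12D allele, and NPmut mice both. The genotype field of the NrasG12D mice reads G21D, whereas their titles read G12D, and they were taken as G12D. Control, p53mut, and NrasG12D mice were age-matched and were treated at about 6 weeks of age with 3 injections of 100 μg pI-pC, a double-stranded RNA that induces interferon. The NPmut mice are labeled as untreated and were moribund, so that genotype, injections, and stage of disease cannot be told apart in any comparison with NPmut mice.

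RAS passes growth factor and cytokine signals through the RAF and MEK kinases to ERK, and ERK activity raises the transcription of genes whose products dampen the same route. DUSP6 removes phosphate from ERK in the cytoplasm, DUSP5 does so in the nucleus, and DUSP4 is a nuclear phosphatase for several MAP kinases. Sprouty and SPRED proteins act upstream, SPRED1 and SPRED2 by bringing the RAS inhibitor neurofibromin to the membrane. The levels of these transcripts are widely read as a gauge of ERK output, and NRAS mutations that lock RAS in its active state are frequent in myeloid leukemia.

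Libraries held 12576174 to 29124022 counts, and log2 levels of all tested genes correlated between libraries with r of 0.919 to 0.979. *Kit*, which the sort selects, was at 504 to 568 CPM (counts relative to library size, scaled by the TMM factors of edgeR, which adjust for composition) in controls and at 284 to 451 CPM in NPmut mice, a fall of 0.54 on the log2 scale (adjusted p = 0.0329). *Nras* (49.8 to 65.8 CPM over all mice) and *Trp53* (77.5 to 128 CPM) were present in every library, and these gene totals do not separate mutant from normal alleles. Spread within a group was widest among the NPmut mice, where the median SD over all genes was 0.35 log2 units, against 0.196 to 0.215 elsewhere. The counts come from mixed cells, in which fewer cells of a type and less RNA per cell cannot be told apart.

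The promoters of *Dusp5* and *Dusp6* are shown because these phosphatase genes, both raised in NPmut mice, differed by mouse in the size of the change, as the values further on show. The windows are the 250 bases before the RefSeq transcription start on GRCm38.p6, written 5′ to 3′ on the plus strand, on which both genes lie. Capitals mark matches to the CArG box, the binding motif of serum response factor, a factor known for switching on immediate-early genes after ERK activation.
Dusp5, chr19:53528895-53529144: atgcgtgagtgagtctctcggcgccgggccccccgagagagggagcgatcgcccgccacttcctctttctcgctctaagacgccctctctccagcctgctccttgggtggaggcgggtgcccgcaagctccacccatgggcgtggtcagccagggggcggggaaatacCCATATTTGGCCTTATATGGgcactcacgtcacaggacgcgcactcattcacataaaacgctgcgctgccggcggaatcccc
Dusp6, chr10:99262981-99263230: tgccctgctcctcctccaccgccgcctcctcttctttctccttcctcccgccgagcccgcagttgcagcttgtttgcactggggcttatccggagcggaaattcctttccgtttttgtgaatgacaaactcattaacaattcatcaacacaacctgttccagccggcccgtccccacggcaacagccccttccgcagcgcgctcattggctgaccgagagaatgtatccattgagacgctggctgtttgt
*Dusp5* held 2 CArG boxes next to each other, CCATATTTGG from 82 to 73 and CCTTATATGG from 72 to 63 bases before the start, and *Dusp6* held none. Promoter entries were found for 7 of the 10 genes, in 8 windows, and only the *Dusp5* window matched. None of the 8 windows held the ETS motif CCGGAA, the AP-1 motif TGACTCA, or the CRE motif TGACGTCA on either strand. Of all 32851 mouse promoter windows of this length, 1.47% held at least 1 CArG box, 0.0183% at least 2, 12% the ETS motif, 4.46% the AP-1 motif, and 1.55% the CRE motif. Of 11 immediate-early genes with promoter entries, 2 held a CArG box, *Zfp36* and *Egr2*. *Nr4a1* and *Junb*, among the genes most like *Dusp5* further on, held none. A match is a match of letters, and no binding was measured. Boxes farther than 250 bases from the start, or with letters other than the motif, were not counted, so that a gene without a match may still have one. Whether the motif bears on the level of *Dusp5* was not tested.

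Per length of transcript, the SPRED genes were the most abundant of the 10 in control HSPCs. In RPKM, read counts scaled by exonic length and library total, control means were 10.1 ± 0.202 (SD, n = 3) for *Spred1*, 9.83 ± 0.36 for *Spred2*, 6.95 ± 0.793 for *Dusp6*, 4.18 ± 0.812 for *Spry2*, 2.71 ± 0.389 for *Dusp5*, and 1.92 ± 0.347 for *Etv5*. The other four were below 1, at 0.935 ± 0.225 RPKM for *Spry1*, 0.853 ± 0.406 for *Spry4*, 0.569 ± 0.198 for *Dusp4*, and 0.429 ± 0.375 for *Phlda1*. *Spred1* and *Spred2* lay within their spread of each other, as did each gene below 1 RPKM and the next in order. In NPmut mice *Dusp5* had the highest mean of the 10, at 15.0 ± 9.86 RPKM (n = 4), ahead of *Dusp6* at 11.0 ± 3.71, although their spreads overlapped widely. In NrasG12D mice *Dusp6* stood first at 13.7 ± 1.21 RPKM, followed by *Spred1* at 12.1 ± 0.515. *Dusp4* and *Phlda1* were sparse, with 11 to 50 and 7 to 88 counts per library, and their values carry a large counting error.

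**Figure D1:**
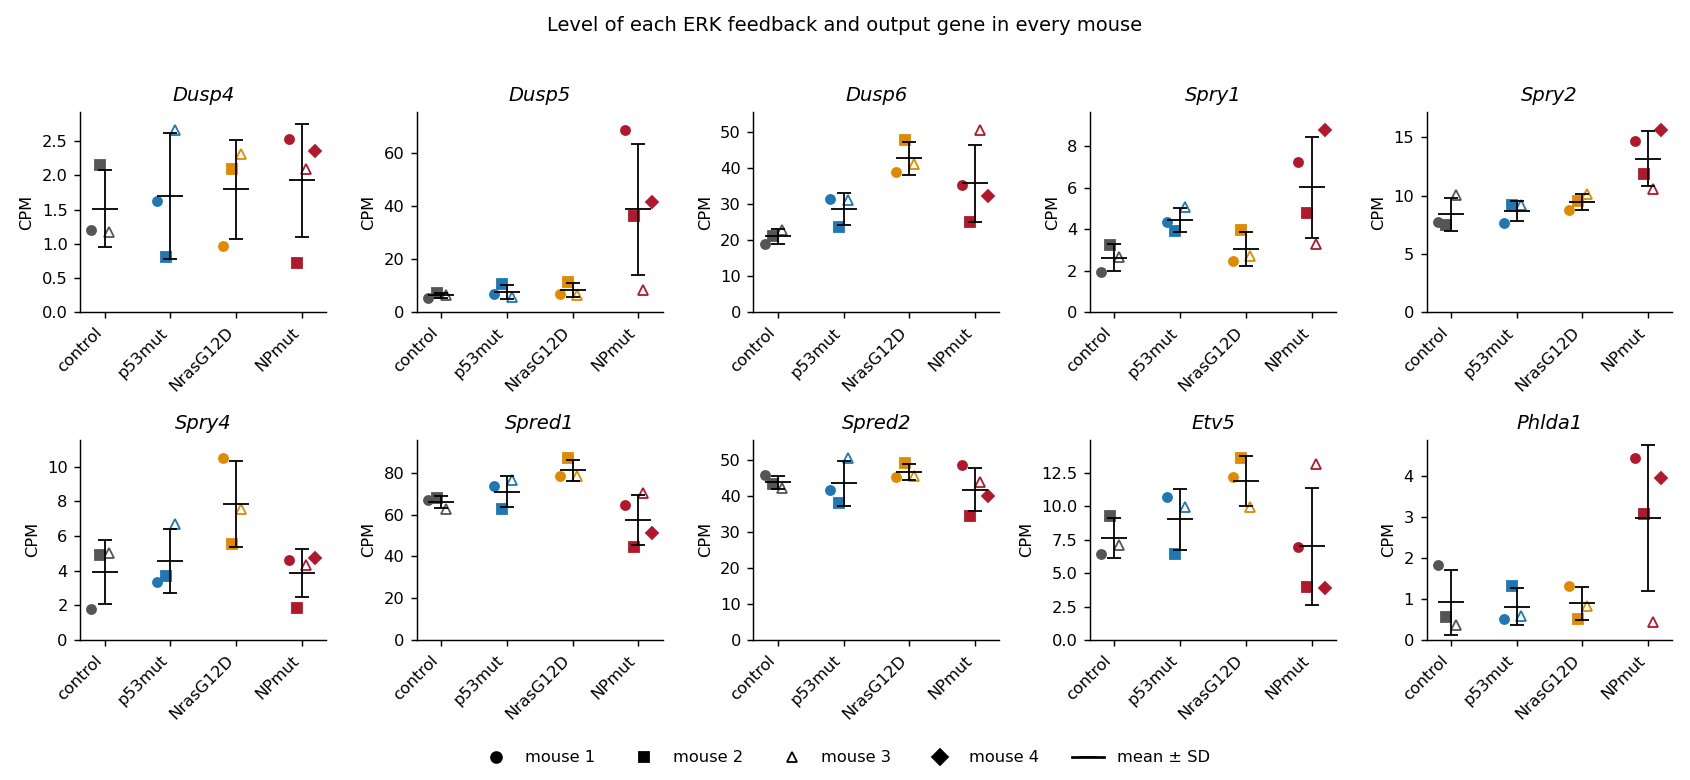
Level of each of the 10 genes (y axis, CPM on TMM-scaled library size, linear from 0) in every mouse by genotype (x axis). Symbols mark the mouse number, open triangles being mouse 3 of each group, and black bars the mean ± SD. *Dusp5* and *Phlda1* were high in NPmut mice 1, 2, and 4 but not in mouse 3, and *Dusp6* was above all controls in every p53mut, NrasG12D, and NPmut mouse.

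In NPmut HSPCs, 4 of the 10 genes were higher than in controls and 0 were lower at an adjusted p under 0.05 in edgeR. They were the phosphatase genes *Dusp5* and *Dusp6* and the Sprouty genes *Spry1* and *Spry2*. Of all genes tested, 10.8% passed, 5.25% higher and 5.58% lower. *Dusp5* and *Spry1* also changed at least 2-fold, as did 5.98% of all genes. The median log2 fold change of the 10 genes was 0.49, against 0.01 for all genes. In these 4 genes every NPmut mouse lay above every control, a pattern found for 10.2% of all genes.

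Among the phosphatases, *Dusp5* (ENSMUSG00000034765, chromosome 19, 53529109 to 53542431, GRCm38) changed most. Controls were at 5.46, 7.39, and 6.55 CPM, whereas NPmut mice 1 to 4 were at 68.4, 36.4, 8.45, and 41.5 CPM. Mice 1, 2, and 4 were far above the controls, and mouse 3 was just above the highest one. The fitted difference was 5.98-fold (log2 fold change 2.58, 95% interval 1.40 to 3.76, adjusted p = 0.0107). *Dusp6* (ENSMUSG00000019960, chromosome 10, 99263231 to 99267489) was at 18.9, 21.3, and 22.9 CPM in controls and at 35.3, 25.1, 50.4, and 32.1 CPM in NPmut mice. Here mouse 3 was the highest and mouse 2 the closest to the controls. The change was 1.70-fold (log2 fold change 0.76, 95% interval 0.35 to 1.18, adjusted p = 0.0214). *Dusp4* overlapped between the groups, at 1.18 to 2.16 CPM in controls and 0.725 to 2.53 CPM in NPmut mice (log2 fold change 0.34, 95% interval -0.72 to 1.39). *Dusp5* did not pass without control mouse 3 (adjusted p = 0.0566), and *Dusp6* did not pass without any single control mouse (0.0566 to 0.0805) or when library sizes were left unscaled, without TMM factors (0.0605).

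Sprouty proteins hold back receptor signals upstream of RAF. *Spry1* (ENSMUSG00000037211, chromosome 3, 37639947 to 37644598) was at 1.95, 3.27, and 2.66 CPM in controls and at 7.23, 4.81, 3.28, and 8.76 CPM in NPmut mice. Mouse 3 again lay beside the highest control, and the other three were clearly above. The fitted difference was 2.28-fold (log2 fold change 1.19, 95% interval 0.47 to 1.90, adjusted p = 0.0346). *Spry2* (ENSMUSG00000022114, chromosome 14, 105891947 to 105896819) was at 7.70, 7.46, and 10.03 CPM in controls and at 14.7, 11.9, 10.5, and 15.6 CPM in NPmut mice. The groups were separated by a narrow gap between control mouse 3 and NPmut mouse 3. The difference was 1.56-fold (log2 fold change 0.65, 95% interval 0.26 to 1.03, adjusted p = 0.0347). *Spry4*, at 1.78, 4.93, and 5.02 CPM in controls and 4.60, 1.83, 4.31, and 4.72 CPM in NPmut mice, overlapped fully (log2 fold change -0.03, 95% interval -0.90 to 0.84). *Spry1* did not pass without any single control mouse or without NPmut mouse 1 or 4 (adjusted p = 0.0524 to 0.129), and *Spry2* without control mouse 1 or 2 or NPmut mouse 1 or 4 (0.0620 to 0.117). Unscaled library totals shift the median of all genes from 0.00857 to -0.106 on the log2 scale. With them 1 of the 10 passed, *Dusp5*, beside 11.1% of all genes. When only NPmut and control mice were fitted, *Dusp5* alone passed as well, beside 5.45% of all genes. With no filter on low counts *Spry2* did not pass (adjusted p = 0.0533).

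The SPRED genes did not pass in this comparison. *Spred1* was at 67.0, 68.1, and 62.7 CPM in controls and at 64.5, 44.2, 70.4, and 51.2 CPM in NPmut mice (log2 fold change -0.19, 95% interval -0.49 to 0.10). *Spred2* was at 45.9, 43.4, and 42.3 CPM in controls and at 48.7, 34.5, 44.0, and 40.0 CPM in NPmut mice (log2 fold change -0.07, 95% interval -0.34 to 0.20). NPmut mouse 2 was the lowest of all 13 for both genes, and the remaining NPmut mice were spread around or below the controls.

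Of the outputs, *Etv5* encodes an ETS transcription factor and *Phlda1* a pleckstrin homology protein. *Etv5* was at 6.44, 9.30, and 7.11 CPM in controls and at 6.98, 3.97, 13.2, and 3.88 CPM in NPmut mice, with mouse 3 above and mice 2 and 4 below every control (log2 fold change -0.12, 95% interval -0.89 to 0.65). *Phlda1* was at 1.84, 0.555, and 0.358 CPM in controls and at 4.45, 3.09, 0.431, and 3.96 CPM in NPmut mice. Mice 1, 2, and 4 exceeded every control, and mouse 3 lay among them. *Phlda1* missed the threshold (log2 fold change 1.69, 95% interval 0.20 to 3.19, adjusted p = 0.142), and without mouse 3 it passed (2.06, adjusted p = 0.0286).

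**Figure D2:**
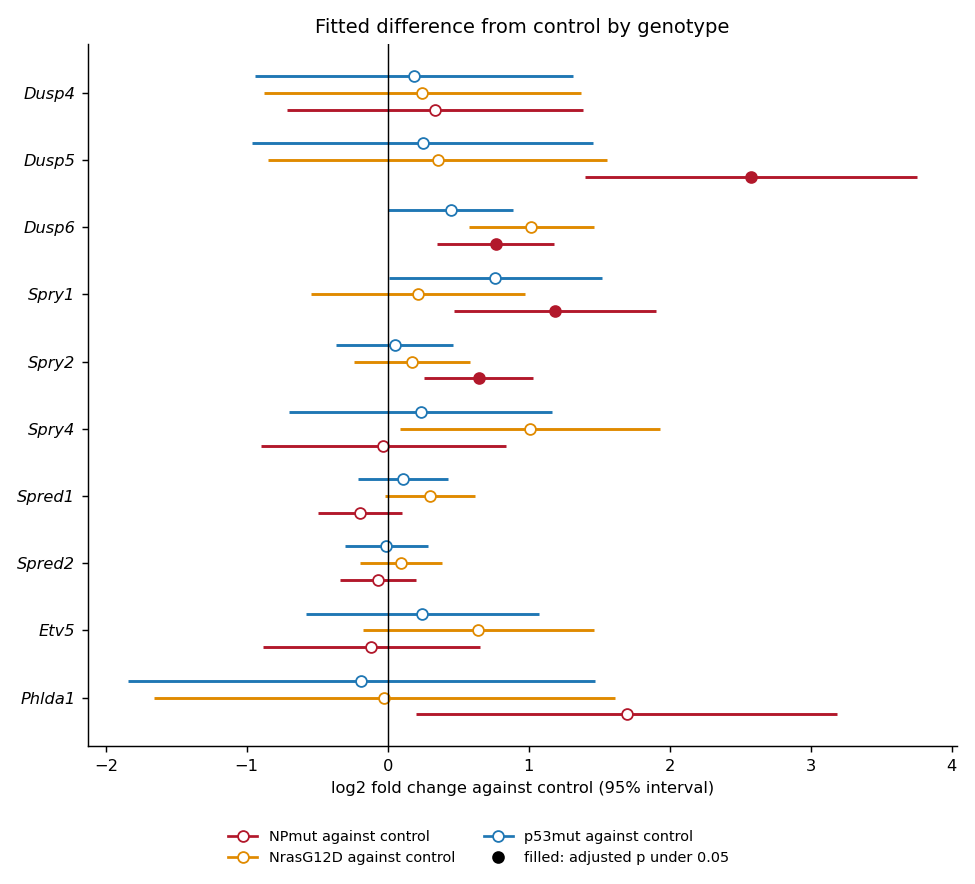
Fitted log2 fold change against control (x axis) of each gene (y axis) in p53mut, NrasG12D, and NPmut mice, with 95% intervals from edgeR and filled points where the adjusted p was under 0.05. The 4 filled points are *Dusp5*, *Dusp6*, *Spry1*, and *Spry2* in NPmut mice, and the NrasG12D point of *Dusp6* lies at 1.02, open.

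Mouse by mouse, the NPmut group was not uniform. In mice 1, 2, and 4 *Dusp5* counts exceeded *Dusp6* counts, at ratios of *Dusp6* to *Dusp5* of 0.516, 0.691, and 0.773. In mouse 3 the ratio was 5.96, within the 4.21 to 6.40 of the NrasG12D mice and near the 2.25 to 5.56 of the p53mut mice, and controls ranged from 2.88 to 3.50. Mouse 3 also had the lowest *Spry1*, *Spry2*, and *Phlda1* and the highest *Dusp6*, *Spred1*, and *Etv5* of the 4 NPmut mice. The titles carry an animal identifier per mouse. That of mouse 3 lies within the range of the p53mut mice, whereas those of the other NPmut mice are lower than in every other group. What the identifiers stand for is not given, and a link to these values was not tested. The SD of log2 CPM among NPmut mice was at the 98.3 percentile of all genes for *Phlda1*, 97.1 for *Dusp5*, 86.8 for *Etv5*, and 25.2 for *Spred2*. Without mouse 3, the log2 fold change of *Dusp5* against control was 2.92 (adjusted p = 0.000105), that of *Spry1* 1.40 (0.00926), and that of *Dusp6* 0.56 (0.0350). In that fit 5 of the 10 genes passed, and 12% of all genes, against 10.8% with all mice. Mouse 3 stood out by the values of these same genes. Fits without it, here and in the other comparisons, are therefore no independent support for a change in any of them.

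**Figure D3:**
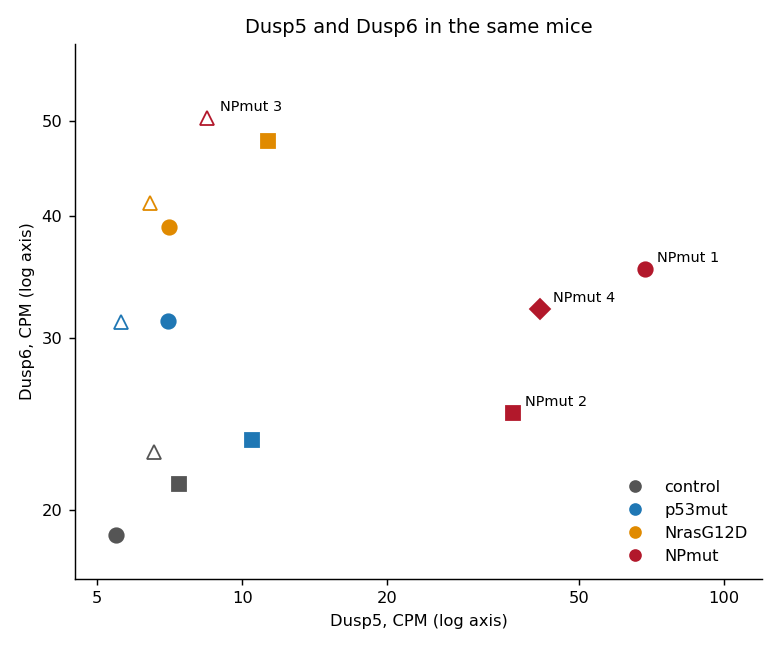
*Dusp5* (x axis) against *Dusp6* (y axis) in the 13 mice, in CPM on log axes, colored by genotype, with symbols as mouse numbers. NPmut mice 1, 2, and 4 lie to the right at 36.4 to 68.4 CPM of *Dusp5*, and NPmut mouse 3 lies with the NrasG12D mice at 8.45 CPM of *Dusp5* and 50.4 CPM of *Dusp6*.

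The summed level of the immediate-early genes, which respond to signals within minutes, divided the NPmut mice in the same way. The summed level of the 12 listed genes was 1110, 983, and 1720 CPM in NPmut mice 1, 2, and 4 but 261 CPM in mouse 3, and it was 191 to 392 CPM in the other 9 mice. In NPmut against control mice, 9 of the 12 were higher and 0 lower, with a median log2 fold change of 2.28. The 5 with the smallest adjusted p were *Junb* (1.47, adjusted p = 0.00449), *Ier2* (1.14, 0.00549), *Klf4* (2.85, 0.0106), *Nr4a1* (4.94, 0.0145), and *Zfp36* (2.17, 0.0214). The sum does not stand for each of these 5. Every NPmut mouse, mouse 3 included, was above every control in *Junb*, *Ier2*, *Klf4*, and *Nr4a1*. The lowest NPmut and highest control values were 32.7 and 25.8 CPM for *Junb*, 44.0 and 32.9 for *Ier2*, and 6.3 and 4.5 for *Nr4a1*. For *Zfp36* they were 27.8 and 29.8 CPM, so that the groups overlapped. The gene most like *Dusp5* over the 13 libraries was *Nr4a1*, an orphan nuclear receptor gene of this list (r = 0.979). The part of this shift in the values of *Dusp5*, *Phlda1*, and the Sprouty genes was not tested.

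**Figure D4:**
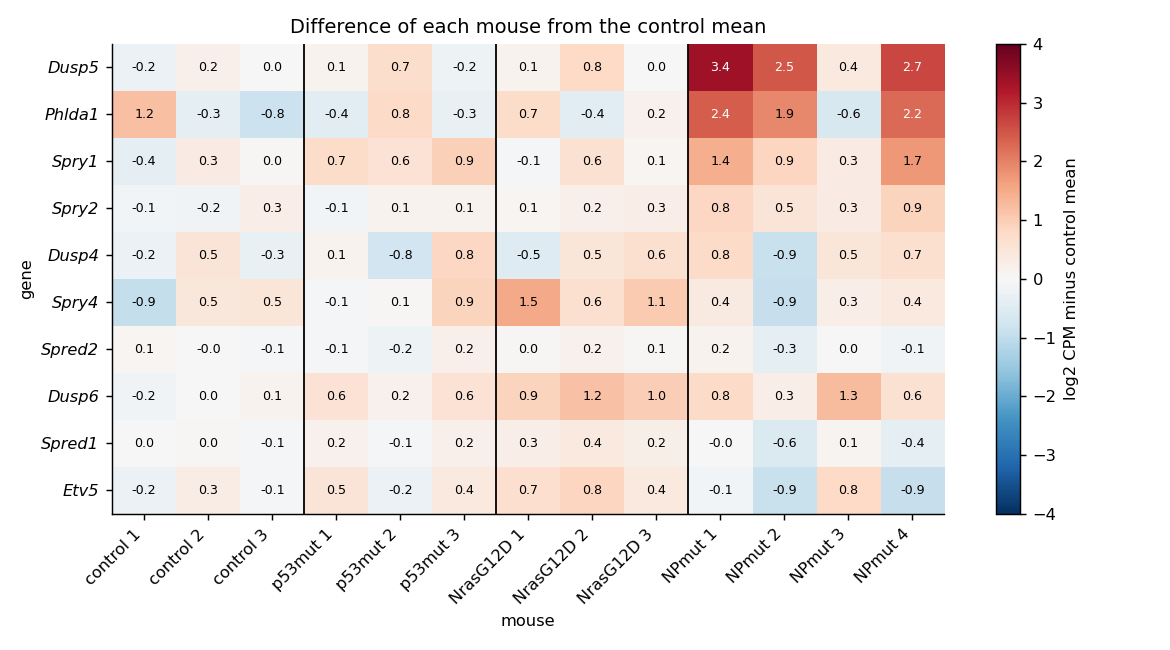
Difference of each mouse (x axis) from the mean of the controls on the log2 CPM scale (color and number) for the 10 genes (y axis), with black lines between the genotypes. NPmut mice 1, 2, and 4 share raised *Dusp5*, *Phlda1*, and *Spry1*, whereas NPmut mouse 3 has lower values of these genes, and *Dusp6* is above the controls in all 4 NPmut mice, most in mouse 3, the only NPmut mouse with *Etv5* above every control.

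Markers of cell types also differed between NPmut and control mice. Of 8 monocyte and macrophage genes 6 were higher and 0 lower, and their summed level was 1610 to 2340 CPM in NPmut mice, 587 to 664 in controls, 500 to 958 in p53mut, and 502 to 773 in NrasG12D mice. All 8 hematopoietic stem cell genes were lower, at 33.5 to 98.0 CPM against 163 to 263 CPM in controls. All 6 megakaryocyte genes tested were lower, at 13.7 to 70.3 CPM against 127 to 203 CPM, and *Gp1bb*, which was not tested, had no count in NPmut mice. Erythroid genes were lower in 3 of 8 (324 to 730 against 857 to 1210 CPM), mast cell and basophil genes higher in 1 and lower in 2 of 7, and neutrophil genes in neither direction in 8. Dendritic cell genes were higher in 3 of 4 tested, B lymphoid genes in 1 of 5, stromal and endothelial genes higher in 1 and lower in 2 of 4, and 0 of 2 T and NK genes passed. All 4 NPmut mice, mouse 3 included, lay above every other mouse in the monocyte sum and below it in the stem cell sum. The part of these shifts in the values of the 10 genes was not tested.

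In NrasG12D HSPCs, 0 of the 10 genes passed against control in edgeR, as 0.00562% of all genes did. At an unadjusted p under 0.05, *Dusp6* and *Spry4* passed, as did 9.1% of all genes, and DESeq2 called 1, *Dusp6*, beside 154 genes over all (0.865%). *Dusp6* was at 39.0, 47.7, and 41.2 CPM in NrasG12D mice against 18.9 to 22.9 CPM in controls, so that every mutant lay above every control by a wide margin. Its log2 fold change was 1.02 (95% interval 0.58 to 1.46) with an adjusted p of 0.0993 in edgeR and of 0.00241 in DESeq2. It passed in edgeR when only both groups compared were fitted (0.00266), where 1.45% of all genes did, and when NPmut mouse 2 was left out (0.0106), where 0.455% did. *Spry4* was at 10.5, 5.56, and 7.53 CPM, all above the controls (log2 fold change 1.01, 95% interval 0.09 to 1.93, adjusted p = 0.502). *Spred1*, at 78.6, 87.1, and 78.2 CPM, and *Etv5*, at 12.2, 13.6, and 9.92 CPM, were also above every control, with log2 fold changes of 0.30 (95% interval -0.02 to 0.62) and 0.64 (-0.18 to 1.46). Those 4 of 10 genes without overlap compare with 10.2% of all genes. *Dusp5* was at 7.06, 11.3, and 6.44 CPM (log2 fold change 0.35, 95% interval -0.85 to 1.56), *Spry1* at 2.47, 3.99, and 2.70, *Spry2* at 8.78, 9.55, and 10.1, and *Spred2* at 45.4, 49.4, and 45.8 CPM. *Dusp4* (0.975 to 2.32 CPM) and *Phlda1* (0.523 to 1.32 CPM) overlapped the controls. The median log2 fold change was 0.27, against -0.02 for all genes.

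In p53mut HSPCs, 0 of the 10 genes passed against control in edgeR or in DESeq2, and 0% of all genes passed in edgeR. At an unadjusted p under 0.05, *Dusp6* and *Spry1* passed, as did 2.32% of all genes. *Dusp6* was at 31.2, 23.6, and 31.1 CPM (log2 fold change 0.45, 95% interval 0.01 to 0.89, adjusted p = 0.9997) and *Spry1* at 4.36, 3.92, and 5.08 CPM (0.76, 95% interval 0.01 to 1.52, adjusted p = 0.9997). In both genes every p53mut mouse was above every control, as in 5.41% of all genes, and in 0 of the 10 genes was every one below, as in 5.72% of all genes. *Dusp5* was at 7.02, 10.5, and 5.60 CPM, *Dusp4* at 1.63, 0.813, and 2.66, *Spry2* at 7.68, 9.17, and 9.24, and *Spry4* at 3.32, 3.70, and 6.70 CPM. *Spred1*, at 73.7, 62.8, and 76.6 CPM, *Spred2*, at 41.8, 38.2, and 50.6, *Etv5*, at 10.7, 6.43, and 9.93, and *Phlda1*, at 0.517, 1.33, and 0.577, likewise overlapped the controls. Log2 fold changes of these 8 ran from -0.19 for *Phlda1* to 0.25 for *Dusp5* and *Etv5*. All comparisons with control share the same 3 control mice.

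NPmut mice were also set against the single mutants, which shows where the 10 genes differed between mice that share an allele. Against NrasG12D mice, 2 of the 10 passed, 1 higher and 1 lower, beside 4.04% and 4.86% of all genes and 8.9% in either direction. *Dusp5* was 4.68-fold higher (log2 fold change 2.23, 95% interval 1.07 to 3.38, adjusted p = 0.0227), although NPmut mouse 3 at 8.45 CPM lay within the NrasG12D range of 6.44 to 11.3. *Spred1* fell by 0.50 on the log2 scale (95% interval -0.79 to -0.20, adjusted p = 0.0379), with every NPmut mouse (44.2 to 70.4 CPM) below every NrasG12D mouse (78.2 to 87.1 CPM). *Spry4* was also below in every mouse (1.83 to 4.72 against 5.56 to 10.5 CPM) without passing (log2 fold change -1.04, 95% interval -1.89 to -0.19, adjusted p = 0.124). Groups without overlap, lower in NPmut mice, were seen for these 2 of 10 genes and 10.9% of all genes. *Spry2* was above in every mouse, as were 9.51% of all genes (log2 fold change 0.47, adjusted p = 0.124). *Spry1* overlapped and did not pass in edgeR (log2 fold change 0.97, 95% interval 0.26 to 1.68, adjusted p = 0.0848). It passed in DESeq2 (adjusted p = 0.0400), where 12.9% of all genes did. *Dusp6* differed by a log2 fold change of -0.25 (95% interval -0.66 to 0.15). *Dusp5* did not pass without any single NrasG12D mouse or NPmut mouse 2 (adjusted p = 0.0577 to 0.103), nor *Spred1* without any NrasG12D mouse, control mouse 1 or 3, or NPmut mouse 4 (0.0505 to 0.151). With no filter on low counts *Dusp5* did not pass either (0.0837), nor did *Dusp5* (0.0656) or *Spred1* (0.125) when only both groups were fitted. Without NPmut mouse 3, 5 of the 10 passed, as did 10.4% of all genes, with *Etv5* lower (-1.26, adjusted p = 0.00996) and *Spry1* (1.18, 0.0242) and *Phlda1* (2.08, 0.0315) higher beside *Dusp5* and *Spred1*.

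Against p53mut mice, 1 of the 10 genes passed, as 9.91% of all genes did, 4.72% being higher and 5.19% lower. *Dusp5* was 5.04-fold higher (log2 fold change 2.33, 95% interval 1.16 to 3.50, adjusted p = 0.0176), with NPmut mouse 3 again inside the p53mut range of 5.60 to 10.5 CPM. *Spry2* had no overlap, as 8.96% of all genes in that direction, and missed the threshold (log2 fold change 0.60, 95% interval 0.21 to 0.99, adjusted p = 0.0528). *Spry1*, raised against control, had an interval of -0.27 to 1.12 here. *Dusp5* did not pass without p53mut mouse 1 or 3 (adjusted p = 0.0757 and 0.0958), with no filter on low counts (0.0607), or when only both groups were fitted (0.0596). Without NPmut mouse 3, *Spry2* (0.70, adjusted p = 0.0256) and *Phlda1* (2.25, 0.0221) passed as well, as did 11.4% of all genes, and without NPmut mouse 2 *Spry2* did (0.64, 0.0429), as did 10.7%.

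The interaction, which asks on the log2 scale whether the NPmut difference departs from the sum of both single-mutant differences, was called for 0 of the 10 genes in edgeR and in DESeq2, beside 1.62% of all genes in edgeR and 5.19% in DESeq2. At an unadjusted p under 0.05, 4 genes passed, as did 16% of all genes. *Dusp5* was above the sum by 1.98 (95% interval 0.33 to 3.63, adjusted p = 0.223). *Dusp6* was below it by -0.70 (-1.30 to -0.10, 0.233), *Spry4* by -1.27 (-2.53 to -0.01, 0.309), and *Spred1* by -0.60 (-1.04 to -0.17, 0.155). Without NPmut mouse 3, 3 genes passed, *Dusp5* at 2.31 (adjusted p = 0.00880), *Dusp6* at -0.92 (0.0386), and *Etv5* at -1.51 (0.0467), and the calls over all genes rose from 289 to 653 (3.72%). Mouse 3 stood out by the values of these same genes, and leaving out any other single mouse gave no call among the 10 genes.

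Other genes of the pathway were read from 3 further lists in NPmut against control mice. Of 14 genes for kinases and scaffolds of the cascade itself, 1 was higher and 1 lower, with a median log2 fold change of 0.04. These were *Rps6ka1* (0.62, adjusted p = 0.0132) and *Rps6ka3* (-0.54, 0.0231), which encode the ERK-activated kinases RSK1 and RSK2. Of 12 further MAP kinase phosphatases and feedback inhibitors, 10 were tested, 2 were higher, and 0 were lower, with a median of 0.58. They were the phosphatase genes *Dusp2* (15.0 to 17.4 CPM in controls and 22.2 to 54.3 in NPmut mice, log2 fold change 1.06, adjusted p = 0.00886) and *Dusp10* (1.07, 0.0180). *Spry3* had no count in any library. Of 11 further transcriptional outputs, 10 were tested, 5 were higher, and 1 was lower, with a median of 1.58. The urokinase receptor gene *Plaur* (1.90, adjusted p = 0.000527), the ephrin receptor gene *Epha2* (3.38, 0.000564), *Emp1* (2.36, 0.00219), and the cyclin D1 gene *Ccnd1* (1.65, 0.00390) had the smallest adjusted p, followed by *Ier3* (1.50, 0.0139). *Epha2* was scarce in controls, at 4 to 7 counts. The gene that fell was *Epha4* (-3.19, adjusted p = 0.0261), at 6 to 27 counts in controls and 0 to 5 in NPmut mice, named after its values were seen. In NrasG12D and p53mut mice, 0 genes of these 3 lists passed against control. Log2 fold changes in NrasG12D mice were 1.71 for *Emp1* (adjusted p = 0.189) and 1.35 for *Ccnd1* (adjusted p = 0.178), the latter at 31.6 to 52.0 CPM against 14.1 to 17.6 CPM in controls.

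**Figure D5:**
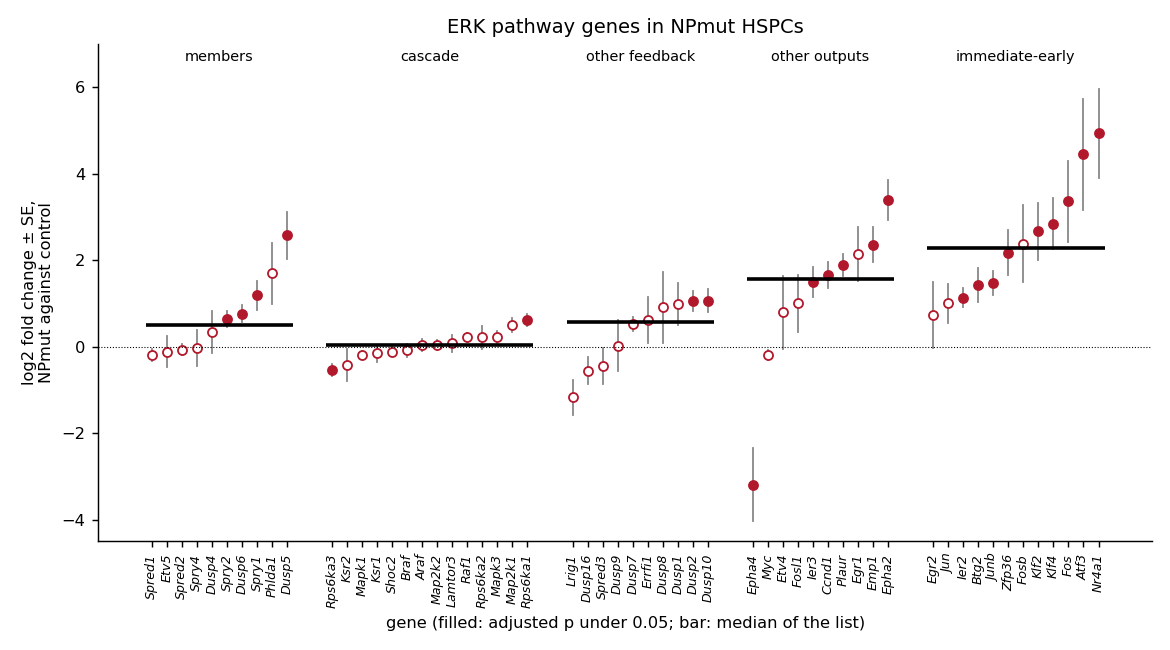
Log2 fold change of NPmut against control (y axis, ± SE) for the 10 genes and for the tested genes of 4 lists (x axis), filled where the adjusted p was under 0.05, with a bar at the median of each list. Medians are 0.49 for the 10 genes, 0.04 for the cascade, 0.58 for other feedback genes, 1.58 for other outputs, and 2.28 for immediate-early genes.

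The genes whose log2 CPM was most like that of each of the 10 differed between them, among 12975 genes compared over the 13 libraries. The mice share genotypes and the NPmut mice span the widest range, so that these values of r describe the libraries only. *Dusp5* was most like *Nr4a1*, *Pmaip1* (0.968), and *Junb* (0.967), and *Phlda1* most like *Cep83* (0.904), *Klf6* (0.873), and *Zfp36* (0.867). *Spry2* was most like *Preb* (0.943), *Tnfaip3* (0.940), and *Ier3* (0.938), and *Spry1* most like *Armcx5* (0.931), *Mvp* (0.875), and *Paf1* (0.850). *Dusp6* was most like *Hp1bp3* (0.906), *Afap1l1* (0.893), and *Camk1d* (0.889). *Spred1* and *Spred2* shared *Tcf7l2* as the most alike gene (0.967 and 0.879), followed by *Exoc3l2* (0.964) and *Lat* (0.952) for *Spred1* and by *Cnrip1* (0.859) and *Slc23a2* (0.846) for *Spred2*. *Etv5* was most like *Spred1* (0.920), *Arhgef10* (0.912), and *Smarcc1* (0.898), the only case in which a gene of the 10 was among the most alike of another. For *Spry4* they were *Nlrc5* (0.901), *Gm37176* (0.871), and *Ndst2* (0.859).

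Background was estimated from reads on genes that should be silent. By the counts per base on 1461 olfactory and vomeronasal receptor genes, which have no known use in these cells, background made up at most 13.8% of the *Phlda1* counts, 8.64% of the *Dusp4* counts, and 6.35% of the *Spry4* counts of any library, the highest values of the 10 genes. Annotated genes on the opposite strand overlap *Spry1*, *Phlda1*, and *Spry4*, with 32 against 919, 14 against 351, and 0 against 1080 counts over all libraries. An antisense gene that overlaps *Dusp5* has no entry in the count table, so that reads from it cannot be judged. The library kit keeps strand, and whether the counting used it is not given in the sources used here.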

How the data were processed

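The authors deposited 1 table of raw read counts per gene, whole numbers with 1 column per mouse, for 54838 genes under Ensembl identifiers, and 0 columns were left without a sample. The submitters' processing notes name STAR 2.6.1d, R 3.6.1, DESeq2 1.26.0, and the genome build GRCm38.p6. The counting program is not given in the sources used here. GENCODE M21 on GRCm38 holds 54809 of the identifiers and gave gene names and exonic lengths. The other 29, with 0.0032% of the counts, stayed in the tests.

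Counts were tested in R 4.3.3 with the quasi-likelihood test of edgeR 4.0.16 (robust, TMM factors, filterByExpr, 1 mean per group, all 13 libraries), with Benjamini-Hochberg adjustment over 17795 genes. CPM use TMM-scaled library sizes, RPKM library totals and exonic lengths, and log2 CPM a prior count of 2. Genes passed at an adjusted p under 0.05. The 10 genes and all lists were chosen with earlier results of these data known. The rule for naming takes the 10 genes, up to 5 genes per pathway list with the smallest adjusted p under 0.05, and the 3 genes most alike each of the 10. The tests were repeated in DESeq2 1.42.0, with RLE factors or unscaled library totals, with other filters on low counts, with only the groups compared, with a replicate block, and without each mouse. Mouse numbers come from the labels. Control and p53mut mice of the same number deviated from their group means together (r = 0.166, 0.163, and 0.152), so that a fit of these 6 libraries with the number as a block was added after these values were seen. In simulated NPmut against control data, edgeR recovered 67% of 2-fold and 94% of 4-fold changes with 8 false calls among 17357 genes, and for the interaction 32% and 81% with 6 false calls. The simulated libraries were drawn once, from control means and with the same dispersion of a gene in every group. In the data the NPmut mice spread more widely (median SD 0.35 against 0.196 to 0.215 log2 units), so that these rates may not hold for them. Sequences come from the RefSeq promoter table for GRCm38.p6. The genes most alike to *Dusp4* are not reported here.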

Additional observations from a re-analysis of the deposited data

Results flagged for a closer look

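In NPmut mouse 2, *Spry4* was at 1.83 CPM, far below the other 3 NPmut mice at 4.31 to 4.72 CPM. The gap to its nearest neighbor took 0.857 of the range of the group, above the 95% critical value of Dixon's test for 4 samples. It was the single flag among the 10 genes tested in this group, and chance alone flags about 1 in 20 groups. No interaction passed the adjusted threshold for any of the 10 genes.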

How the results depend on the processing

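Of 1192 comparisons of a single gene with an alternative, 1085 kept direction and side of the threshold, 41 fell short of it, 22 newly passed, and 44 changed direction. The cause of the changes was not tested. Counts of the 10 genes that passed moved as follows, with the share of all genes that passed in the same fit in percent. For NPmut against control, 4 (10.8%) became 1 with library totals (11.1%), 1 with only the groups compared (5.45%), and 2 with the replicate block (15.4%). Without a filter the count stayed at 4 (6.33%), with *Spry2* lost (adjusted p = 0.0533) and *Phlda1* gained (0.00807). For NrasG12D against control, 0 became 1, *Dusp6*, without a filter on low counts (0.607%), in DESeq2 (0.865%), with the block (0.258%), and with only the groups compared (1.45%). For NPmut against NrasG12D, 2 (8.9%) became 4 without a filter (4.59%), with *Dusp5* lost (0.0837) and *Etv5* (0.0455), *Phlda1* (0.0116), and *Spry4* (0.0151) gained. It became 1 with the block (13.2%) and 0 with only the groups compared (3.85%). In DESeq2 that count was 3 (12.9%), with *Spry1* gained (adjusted p = 0.0400). For NPmut against p53mut, 1 (9.91%) became 2 in DESeq2 (13.8%), 0 with the block (12.5%), and 0 with only the groups compared (3.91%). Without a filter (5.14%) *Dusp5* was lost (adjusted p = 0.0607) and *Phlda1* gained (0.00334). When single mice were left out, the counts were 1 to 5, 0 to 1, 0 to 5, and 0 to 3 in these comparisons, 0 in each case for p53mut against control, and 0 to 3 for the interaction. RLE factors moved none of these counts.

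The labels pair mice of different groups only by replicate number, control and p53mut mice included. The titles also carry animal identifiers, by which NPmut mouse 3 lies apart from the other NPmut mice, and these were not used in any fit. Between the other groups, same-number r ranged from -0.114 to 0.294, and r between control mouse 3 and NPmut mouse 1 was 0.239. With the replicate block, log2 fold changes that turned were *Phlda1* in NrasG12D (0.16) and p53mut (0.066) against control, *Dusp4* in NPmut against NrasG12D (-0.036), and *Spry1* in the interaction (-0.035). *Dusp5* in NPmut mice had adjusted p of 0.0610 against NrasG12D and 0.0548 against p53mut mice in that fit. In control and p53mut libraries alone, the block by number gave 0 calls among the 9 of the 10 genes in the fit (*Dusp6* 0.44, adjusted p = 0.220, *Spry1* 0.78, adjusted p = 0.423) and 45 calls over all genes.

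Without a filter, *Spry4* in NPmut (0.0056) and *Phlda1* in NrasG12D (0.014) against control turned. With each mouse left out in turn, log2 fold changes that crossed 0 spanned these ranges.
For NPmut against control, *Spry4* -0.35 to 0.21, *Spred2* -0.15 to 0.013, *Etv5* -0.61 to 0.086. For NrasG12D against control, *Spry1* -0.016 to 0.43, *Phlda1* -0.41 to 1.01. For p53mut against control, *Dusp4* -0.30 to 0.53, *Dusp5* -0.036 to 0.45, *Spry2* -0.018 to 0.20, *Spry4* -0.15 to 0.46, *Spred2* -0.12 to 0.0802, *Phlda1* -0.72 to 0.82. For NPmut against NrasG12D, *Dusp4* -0.22 to 0.37. For NPmut against p53mut, *Dusp4* -0.17 to 0.66, *Spry4* -0.44 to 0.14, *Spred2* -0.14 to 0.078. For the interaction, *Dusp4* -0.45 to 0.38, *Spry1* -0.014 to 0.44. 

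Over all genes, calls ranged from 933 to 2843 over the settings and 813 to 2211 with mice left out (1927 as reported) for NPmut against control, 0 to 273 and 0 to 80 (1) for NrasG12D against control, and 0 to 45 and 0 to 1 (0) for p53mut against control. They ranged from 637 to 2350 and 674 to 1823 (1584) for NPmut against NrasG12D, 648 to 2459 and 657 to 2004 (1763) for NPmut against p53mut, and 224 to 933 and 66 to 653 (289) for the interaction. Depth limits *Phlda1* and *Dusp4*, with as few as 7 and 11 counts in a library.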
